A study of Mus musculus with 36 samples.

Results

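This report covers gravity withdrawn in space in untreated myoblasts: 3 libraries of polyadenylated RNA from C2C12 cells in space without gravity, set against 3 from space with gravity. The 6 libraries were chosen by their labels alone, from 18 polyadenylated RNA libraries (36 samples counting small RNA) of a study of gravity and nanoceria, which are cerium oxide nanoparticles. C2C12 is an established line of mouse muscle precursor cells; per the labels it was proliferating. Both groups flew in sealed experiment units inside a Kubik incubator at 37 degrees C, were seeded at 1500 cells per cm2 from passages 6 to 10, received no nanoceria (0 µg/ml), and were fixed with RNAlater. The last fluidic activation was on day 9. The group names follow the labels, which do not describe how gravity was supplied. Values of the nanoceria-treated pair of space groups (100 µg/ml, 3 libraries each) and of the untreated land group (3 libraries) are given below only beside these 6. The labels do not say whether the 3 libraries of a group came from separate cultures. Each p-value therefore measures a spread between libraries, which may be technical. For genes, that spread was estimated over all 18 polyadenylated RNA libraries. All differences are without gravity minus with gravity, and levels within a sentence follow the order of replicates 1, 2 and 3.

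Myoblasts divide until they leave the cell cycle and fuse into myotubes. Muscle is built and kept by mechanical load: in unloaded muscle, ubiquitin ligases such as Fbxo32 and Trim63 are known to mark proteins for breakdown. Cultured cells sense load through integrins, the actin skeleton and the nuclear lamina, and the factors SRF and YAP turn that tension into transcription of contractile and matrix genes. Oxidative stress works through NRF2 and DNA damage through p53.

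The 3 libraries without gravity held 5442647, 5284506 and 6692745 counts, and the 3 with gravity held 11361755, 11378178 and 4974222. A large part of each library lay in 6 genes, of which Lars2 (the mitochondrial leucyl-tRNA synthetase gene) and the short gene model Gm23935 took the most. These 6 are a fixed set and not the 6 most abundant genes. Gm25911, 1 of the 6, took at most 0.137% of a library, and Actb held more counts in every library. The depth left for all other genes was 1567037 to 3367251 counts without gravity and 3255576 to 8573359 with gravity. Replicate 2 without gravity stood apart: its log2 levels correlated at 0.82 to 0.84 with the other 5 libraries over the 11558 genes tested, while replicates 1 and 2 with gravity correlated at 0.92. Replicates 1 and 3 without gravity correlated at 0.87 with each other and at 0.85 to 0.90 with the libraries with gravity, so the 2 groups did not separate by overall profile. Gene lists whose median turned or shrank by over 1.5 times without replicate 2 without gravity are given with and without it. The third nanoceria-treated library with gravity held only 23858 counts.

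The largest single difference lay in the share of counts taken by the 6 dominant genes. That share was 49.9%, 70.4% and 49.7% without gravity and 24.5%, 33.9% and 34.6% with gravity. Every library without gravity lay above every library with gravity, and the means were 56.7% ± 11.9 (SD, n = 3) and 31.0% ± 5.60 (SD, n = 3), a difference of 25.7 percentage points. The 2-sided exact permutation test gave p = 0.1, the smallest value that 3 against 3 libraries can give, and the value adjusted over 8 shares was 0.4. Without replicate 2 the difference was 18.8 points. Wilson 95% intervals reached at most 0.042 points to each side of these shares, which covers counting error only: PCR copies of 1 molecule are counted as separate reads.

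Lars2 alone took 29.5%, 42.7% and 30.8% of the counts without gravity and 14.8%, 21.2% and 20.7% with gravity. Gm23935 took 17.6%, 23.3% and 16.3% without gravity and 8.37%, 11.2% and 11.7% with gravity. Of the 6 genes, 4 are annotated in GENCODE M21 as miRNA genes of 56 or 57 bases, and their sequences are shown because they are identical or differ by 1 or 2 bases. Capitals mark bases that differ from Gm23935, read 5′ to 3′ on the gene's strand, in GRCm38.
Gm23935 (chr16:11144125-11144181, + strand): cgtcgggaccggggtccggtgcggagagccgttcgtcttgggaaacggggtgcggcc
Gm24270 (chr9:56223715-56223771, - strand): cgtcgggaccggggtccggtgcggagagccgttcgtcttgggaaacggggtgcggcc
Gm24187 (chr13:9834469-9834525, - strand): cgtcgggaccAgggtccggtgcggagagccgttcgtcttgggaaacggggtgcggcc
Gm25911 (chr1:167340369-167340424, - strand): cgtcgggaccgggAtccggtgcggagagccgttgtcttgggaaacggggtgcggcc
Gm24270 is identical to Gm23935 over all 57 bases. Gm24187 differs by G11A alone, and Gm25911 differs by G14A and lacks the base at position 34, counted from 1 at the 5′ end of Gm23935. Although the pair shares every base, Gm23935 held 957081, 1232444 and 1090436 counts without gravity while Gm24270 held 35842, 55741 and 39540. Both were higher as shares of a library in each of the 3 libraries without gravity than in any with gravity, Gm24270 at 0.659%, 1.05% and 0.591% against 0.304%, 0.361% and 0.494%. How the deposited counts treated reads that fit several loci is not given in the sources used here. Only the sum over the 6 dominant genes is therefore read as a measurement. Whether the counts at Lars2 come from its own mRNA was not tested, so its share is not read as a level of that mRNA.

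Outside the dominant genes, the mitochondrial genome took 0.595%, 0.787% and 0.434% of the counts without gravity and 0.268%, 0.211% and 0.453% with gravity. The groups overlapped through replicate 3 with gravity, and the exact permutation test gave p = 0.2 for the difference of 0.295 points. Small noncoding genes other than the dominant ones took 0.521%, 1.29% and 0.437% without gravity and 0.206%, 0.332% and 0.351% with gravity, with no overlap (difference 0.452 points, exact permutation p = 0.1, adjusted 0.4; 0.183 points without replicate 2). Pseudogenes took 0.689%, 1.60% and 0.613% without gravity and 0.521%, 0.452% and 0.657% with gravity, a difference of 0.423 points that was 0.107 points without replicate 2 (exact permutation p = 0.2 with all 6 libraries). When each library was thinned to 1567037 counts outside the dominant genes, 13998, 16001 and 13686 genes were detected without gravity and 14176, 13607 and 13654 with gravity (exact permutation p = 0.5). Only replicate 2 without gravity lay clearly above the rest. Intervals of these shares reached at most 0.026 points to each side.

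**Figure D1:**
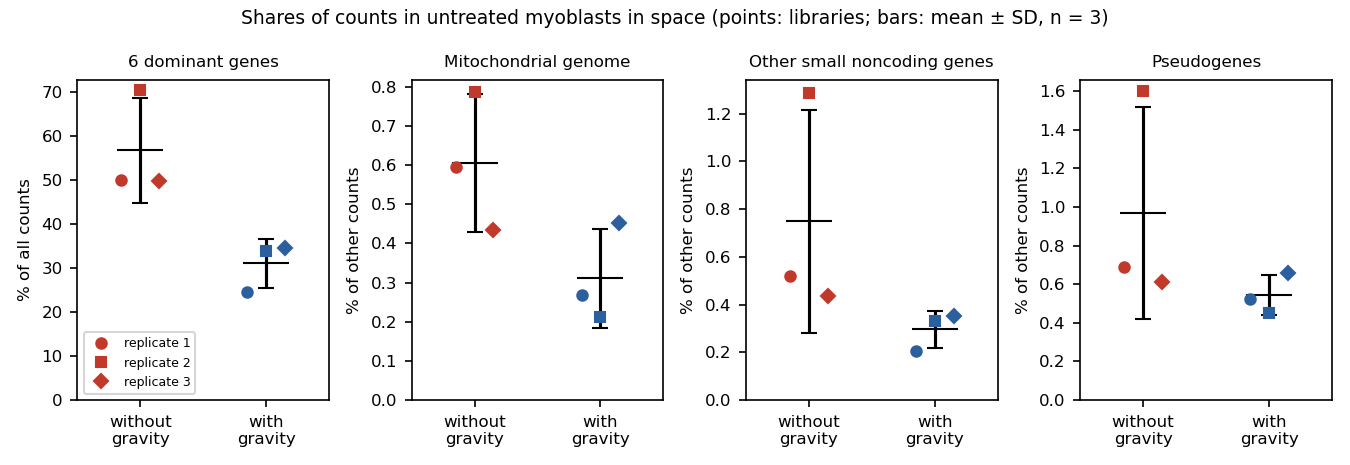
Percent of counts in each of the 6 libraries for the 6 dominant genes (of all counts), the mitochondrial genome, other small noncoding genes and pseudogenes (of counts outside the dominant genes); points are libraries, bars the mean ± SD of 3. The dominant genes and the small noncoding genes do not overlap between the groups, and replicate 2 without gravity is the highest point in every panel.

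Gene by gene, no transcript passed the test. Levels are CPM (counts per 1e6 counts of a library, with TMM scaling of library sizes), and 11558 genes had enough counts to be tested with edgeR's quasi-likelihood test. At a Benjamini-Hochberg adjusted p under 0.05, 0 genes (0% of those tested) differed, and the smallest adjusted p was 0.474. At an unadjusted p under 0.05 there were 468 genes (4.05%), 170 higher without gravity (1.47%) and 298 lower (2.58%). The 3 libraries without gravity lay wholly above the 3 with gravity for 734 genes (6.35%) and wholly below for 691 (5.98%), 1425 in all (12.3%). The log2 fold change had a median of -0.012 over all genes, 5696 of them (49.3%) lay above 0, and the median standard error was 0.73. The biological coefficient of variation was 0.66, and 2237 genes had a fitted change of more than 1 log2 unit in either direction without passing. DESeq2 size factors moved the median of all genes to 0.17, so the signs below are read relative to all genes.

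Other tools called few or unstable genes. DESeq2's own test called 3: Tmem126b (log2 -3.24, adjusted p = 0.0168), Gin1 (-4.00, 0.0172) and, in the other direction, Mpg, a DNA glycosylase gene chosen after its values were seen (4.71, 0.0373). Mpg stood at 59.96, 1.68 and 2.50 CPM without gravity and at 1.35, 0.860 and 0.329 CPM with gravity, so that 1 library carried its level. Without a filter on low counts edgeR called 157 genes (45 higher, 112 lower), of which 98 were among the 11558. In 59 of the 157, 1 of the 6 libraries held over 90% of the counts, and in 48 the groups did not overlap. These counts are given without the share over all genes of that unfiltered fit, so they are not read as a result. Fgf9 and Fanci were the lower and the higher gene with the smallest p there. Fgf9, a growth factor, stood at 0, 0.168 and 0 CPM without gravity and at 2.39, 2.58 and 67.4 CPM with gravity. Fanci, a DNA crosslink repair gene, stood at 0, 0.671 and 60.8 CPM without gravity and at 0.129, 0 and 0.165 CPM with gravity. In both, 1 library held most of the counts. Genes with at least 50 counts in a library and more than 10-fold over both other libraries of the group, numbered 85, 0 and 77 in the libraries without gravity and 124, 69 and 85 in those with gravity.

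Among transcripts that were lower without gravity, Tmem126b, an assembly factor of respiratory complex I, led the protein-coding genes of at least moderate level (mean log2 CPM of 3 or more over the 6 libraries, and 10 counts in each library of the higher group). It lies at chr7:90467438-90476001 on the - strand in GRCm38 and stood at 3.41, 4.70 and 5.35 CPM without gravity against 39.1, 20.9 and 83.8 CPM with gravity. The ranges were well apart, with a log2 fold change of -3.41 ± 0.68 (SE) and an edgeR adjusted p of 0.474. Gin1 (chr1:97770172-97793709, + strand), which encodes a protein related to retrotransposon integrases, stood at 0.802, 1.01 and 0.356 CPM without gravity and at 20.8, 5.07 and 14.7 CPM with gravity. Its log2 fold change was -4.19 ± 0.79 (SE), with an edgeR adjusted p of 0.474. The levels of Gin1 without gravity are those of 2 to 6 counts, close to the 3 counts that correspond to 0.503 to 0.602 CPM in these libraries.

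The other 10 leading genes described on the lower side had adjusted p of 1 in the same test. They are given as values. Parp6, a mono-ADP-ribosyltransferase, stood at 8.22, 9.90 and 9.27 CPM without gravity and at 45.6, 29.2 and 38.2 CPM with gravity. Trappc8, a subunit of the vesicle-tethering TRAPP complex, stood at 12.8, 12.4 and 16.4 CPM without gravity and at 44.0, 53.6 and 37.5 CPM with gravity. Diaph1, a formin that builds actin filaments, stood at 8.62, 4.03 and 5.35 CPM without gravity and at 17.5, 23.0 and 20.1 CPM with gravity. In these 3 genes the libraries within each group were close, and the log2 fold changes were -2.04 ± 0.57, -1.70 ± 0.50 and -1.75 ± 0.55 (SE). Nr1d2, which encodes the circadian repressor REV-ERB beta, stood at 18.1, 15.9 and 21.6 CPM without gravity and at 31.8, 66.6 and 56.5 CPM with gravity (log2 -1.48 ± 0.45, SE). 

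In a further group the libraries with gravity were wide apart. Vps37c, of the ESCRT-I sorting complex, stood at 5.01, 6.88 and 3.92 CPM without gravity and at 14.8, 71.4 and 82.3 CPM with gravity. Zfp398, a zinc finger gene, stood at 4.41, 4.19 and 1.60 CPM without gravity and at 19.6, 13.5 and 64.4 CPM with gravity. Fbxo30, a ubiquitin ligase gene known from muscle atrophy, stood at 4.21, 8.05 and 5.35 CPM without gravity and at 9.54, 13.8 and 38.2 CPM with gravity (log2 -1.80 ± 0.57, SE; -1.01 without replicate 3 with gravity). In all 11 genes described on this side the groups did not overlap. Swt1 (log2 -2.20 ± 0.63), Zfp113 (-2.25 ± 0.65) and 1110051M20Rik (-2.34 ± 0.70, all SE) complete the list.

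On the higher side the spread was wider. Smtn, an actin-binding smoothelin gene, stood at 29.5, 18.3 and 22.5 CPM without gravity and at 10.3, 5.93 and 4.28 CPM with gravity (log2 1.77 ± 0.58, SE). Btbd1 stood at 51.7, 25.7 and 20.5 CPM without gravity and at 11.9, 14.2 and 8.89 CPM with gravity (1.48 ± 0.54, SE). Hcfc1r1, which encodes a binding partner of the cell cycle cofactor HCF-1, stood at 12.4, 28.0 and 18.7 CPM without gravity and at 6.51, 7.65 and 5.76 CPM with gravity (1.57 ± 0.58, SE). With Zrsr2, a gene of minor intron splicing (41.3, 11.9 and 15.0 against 6.83, 7.56 and 5.93 CPM), these were the 4 of 12 whose groups did not overlap. Without replicate 1 without gravity, the value of Btbd1 was 0.94 and that of Zrsr2 went from 1.74 to 0.95.

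In the other 8, replicate 2 without gravity or another single library fell within the range with gravity. Dck, the deoxycytidine kinase that feeds the nucleotide salvage pathway, stood at 44.3, 4.53 and 39.7 CPM without gravity and at 3.93, 6.79 and 3.79 CPM with gravity. Fam110b, whose product sits at the centrosome, stood at 151.6, 4.36 and 25.8 CPM without gravity and at 5.22, 6.36 and 3.13 CPM with gravity. Cxcl1, a neutrophil chemokine, stood at 5.82, 26.2 and 34.4 CPM without gravity and at 7.03, 2.49 and 2.14 CPM with gravity. Atp13a2 (a lysosomal transport ATPase), Parp3 (DNA break repair), Tet3 (a 5-methylcytosine dioxygenase), Stx4a (a plasma membrane syntaxin) and Slc22a21 (a carnitine transporter) had log2 fold changes of 2.06, 1.98, 1.77, 1.65 and 1.57. Without replicate 1 without gravity, Fam110b went from 3.61 to 1.60 and Stx4a to 1.02. All 12 had an edgeR adjusted p of 1.

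**Figure D2:**
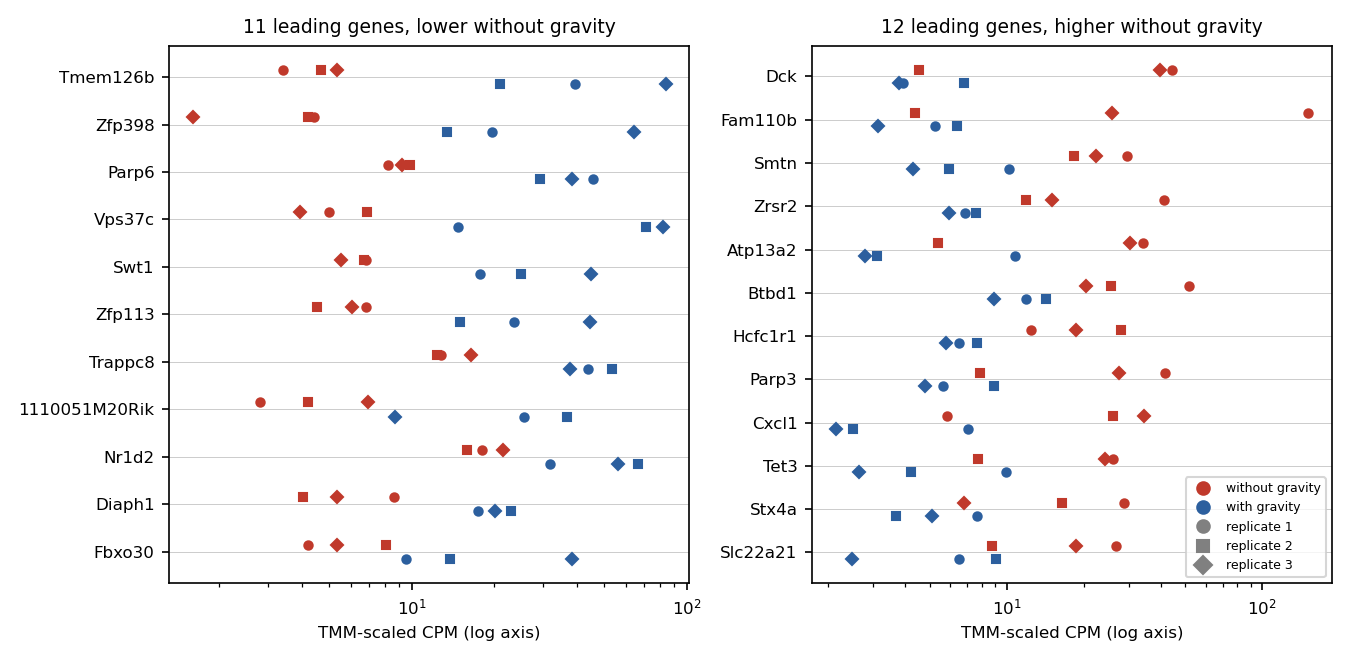
TMM-scaled CPM (log axis) in each of the 6 libraries for the leading protein-coding genes by p, 11 on the lower and 12 on the higher side; red is without gravity, blue with gravity, and the marker gives the replicate. On the left, all 11 genes show separate groups; on the right, 4 of 12 do, and the square of replicate 2 without gravity often lies among the blue points.

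Whether the same withdrawal did the same in nanoceria-treated cells can be asked of 6 other libraries. There, edgeR's adjusted test also called 0 genes (0%), with 668 (5.78%) at an unadjusted p under 0.05, 271 higher (2.34%) and 397 lower (3.43%). Treated libraries without gravity lay wholly above those with gravity for 857 genes (7.41%) and wholly below for 196 (1.7%), 1053 in all (9.11%). These counts lean on the third treated library with gravity, of 23858 counts. A gene without counts in that library cannot lie wholly below, and 3 counts there correspond to 35.7 CPM. The imbalance between the directions is therefore not read as a result. The test of the difference between the untreated and treated contrasts called 0 genes (0%), with 492 (4.26%) at an unadjusted p under 0.05, 226 above 0 (1.96%) and 266 below (2.3%). The smallest adjusted p was 0.358, and DESeq2 called 14. The fitted sign was the same in both for 51.9% of all 11558 genes. It was the same for 270 of the 468 genes with an unadjusted p under 0.05 (57.7%), 52.4% of the higher ones and 60.7% of the lower ones. Of the 12 leading genes on each side, 5 of the higher and 6 of the lower kept their sign in treated cells.

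The pair of genes with the smallest p for that difference were Gin1 and Chml. Gin1, low without gravity in untreated cells, stood in treated cells at 11.1, 13.0 and 6.94 CPM without gravity and at 5.94, 1.59 and 0 CPM with gravity, so the log2 difference of the contrasts was -5.70 ± 1.09 (SE; edgeR adjusted p = 0.358). Chml (chr1:175682237-175692901, - strand), a Rab escort protein gene, stood at 1.81, 3.69 and 1.43 CPM without gravity and at 14.1, 11.95 and 35.2 CPM with gravity in untreated cells. In treated cells Chml stood at 13.0, 43.1 and 2.37 CPM without gravity and at 1.43, 0.956 and 0 CPM with gravity, a difference of contrasts of -7.13 ± 1.44 (SE; edgeR adjusted p = 0.358). Osgin1 (chr8:119434124-119446256, + strand), an NRF2 target that restrains growth under oxidative stress, had the same shape. It stood at 1.60, 0.336 and 1.43 CPM without gravity and at 4.19, 17.5 and 68.0 CPM with gravity in untreated cells (log2 -4.72 ± 1.26, SE). Its treated libraries stood at 20.1, 72.0 and 3.05 CPM without gravity and at 2.85, 0.797 and 0 CPM with gravity (log2 4.10 ± 1.35, SE). The 0 of the third treated library with gravity carries little: 3 counts there correspond to 35.7 CPM. On land, untreated, Gin1 averaged 1.66 ± 1.07 CPM, Tmem126b 7.70 ± 1.08, Chml 7.94 ± 5.51 and Osgin1 23.6 ± 29.9 (SD, n = 3).

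**Figure D3:**
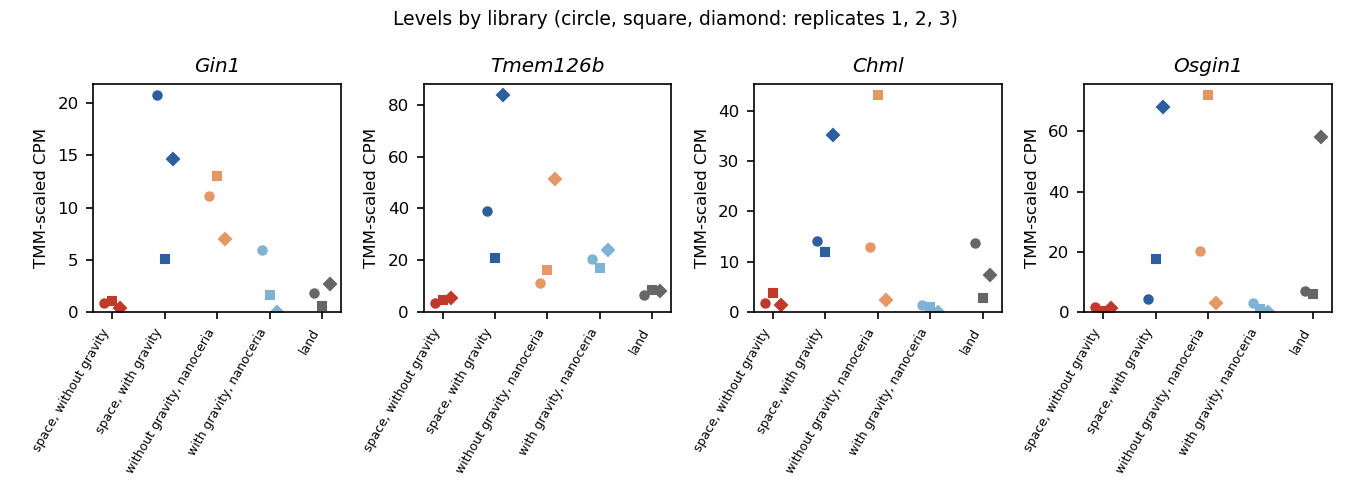
TMM-scaled CPM of Gin1, Tmem126b, Chml and Osgin1 by library in the 4 space groups and on land; markers give replicates 1, 2 and 3. In untreated cells the 3 libraries without gravity lie at or below 5.35 CPM in all 4 genes, and in treated cells Gin1, Chml and Osgin1 lie higher without gravity than with gravity.

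Genes were then described by function, in lists whose members were chosen with earlier results of these data known. Since no gene passed the adjusted test, each list is described by its counts and its median beside those of all genes (49.3% above 0, median -0.012). That background moved with level. In the quartile of genes with the lowest levels the median was 0.17, with 57.3% above 0. In the quartile with the highest levels it was -0.22, with 34.2% above 0 and 8.97% lower without overlap. Lists were not matched for level, so a small lean in a list of abundant or of scarce genes may be that of its level. Counts of members whose groups did not overlap are to be read against 6.35% of all genes on the higher and 5.98% on the lower side, and those with an unadjusted p under 0.05 against 1.47% and 2.58%. In the treated contrast 55.2% of all genes lay above 0, with a median of 0.094.

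Transcripts of the cytosolic ribosome lay on one side. All 80 tested genes of ribosomal proteins and their paralogs had a fitted change above 0, from 0.08 (Rps27l) to 0.89 (Rps9), with a median of 0.60. In 48 of the 80 the libraries without gravity lay wholly above those with gravity, beside 6.35% of all genes, and none had an unadjusted p under 0.05. Rps9 stood at 113.1, 203.3 and 144.3 CPM without gravity and at 83.2, 81.0 and 85.1 CPM with gravity (log2 0.89 ± 0.57, SE). Rpl4, of the large subunit, overlapped, at 547.9, 540.2 and 513.2 CPM without gravity against 386.7, 421.8 and 523.7 CPM with gravity. Summed, the 80 genes stood at 14500, 20300 and 13920 CPM without gravity and at 9291, 10760 and 12310 CPM with gravity.

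The order of the 6 libraries by ribosomal protein level was also their order by the share of the dominant genes, from replicate 2 without gravity (70.4%) down to replicate 1 with gravity (24.5%). With that share as a covariate the direction turned: 14 of the 80 lay above 0, with a median of -0.21. The share does not overlap between the 2 groups, so in these 6 libraries share and gravity cannot be told apart. This limit holds wherever the covariate is used below. Without replicate 2, 79 of 80 lay above 0 with a median of 0.39, and with the trend of gene length taken out 77 of 80 with a median of 0.44. In treated cells, which share no library with this contrast, 78 of 80 lay above 0 with a median of 0.54. Of 98 tested pseudogenes named after ribosomal proteins, 88 lay above 0 (median 0.64), and reads from a gene and its processed copies may be split between them.

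**Figure D4:**
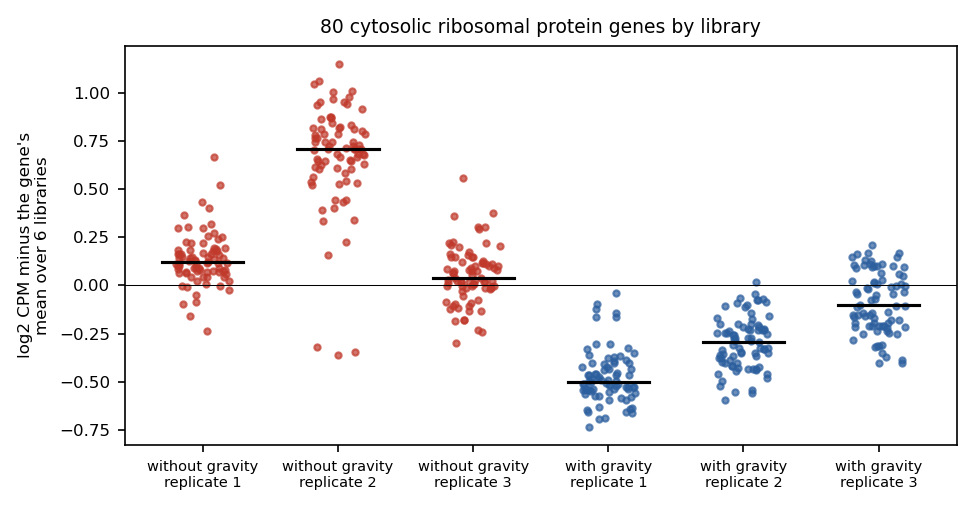
Log2 CPM of 80 cytosolic ribosomal protein genes in each library, as the difference from the gene's own mean over the 6 libraries; each point is a gene and each bar a library's median. The medians run from 0.71 in replicate 2 without gravity to -0.50 in replicate 1 with gravity, and the 3 libraries without gravity have the 3 highest.

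The mitochondrially encoded subunits of the respiratory chain lay on the same side. All 11 tested had a fitted change above 0 (median 0.69), 2 (18.2%, beside 6.35% of all genes) were higher without overlap and none had an unadjusted p under 0.05. The median lay between 0.45 (without replicate 1 without gravity) and 1.10 (without replicate 3 with gravity). The complex III gene mt-Cytb stood at 331.1, 231.9 and 230.2 CPM without gravity against 117.5, 104.0 and 162.0 CPM with gravity (log2 1.05 ± 0.61, SE). For mt-Co1, the catalytic subunit of complex IV, the values were 674.2, 536.2 and 499.9 against 257.6, 307.6 and 516.6 CPM, so replicate 3 with gravity reached the other group. Nuclear subunits of the same complexes lay closer to 0: 19 of 22 lay above 0 with a median of 0.16, which was -0.28 with the dominant share as a covariate. Ndufs1, of complex I, stood at 43.5, 11.2 and 16.4 CPM without gravity and at 15.5, 15.9 and 8.40 CPM with gravity. Atp5b, of the ATP synthase, stood at 109.1, 128.4 and 104.6 CPM without gravity and at 96.1, 109.7 and 145.4 CPM with gravity. In treated cells the mitochondrial transcripts had a median of 2.06, with 11 of 11 above 0.

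Cell division genes leaned upward without gravity, at low levels. Of 26 tested genes of mitosis 22 lay above 0 (median 0.61), 1 had an unadjusted p under 0.05 and 3 (11.5%, beside 6.35% of all genes) were higher without overlap. The median was 1.19 without replicate 1 with gravity and 0.32 without replicate 3 with gravity. Bub1, a spindle checkpoint kinase, stood at 5.21, 4.03 and 20.5 CPM without gravity and at 3.42, 1.46 and 0.494 CPM with gravity (log2 2.42 ± 0.91, SE; 1.30 without replicate 3 without gravity). Mki67, the proliferation antigen Ki-67, stood at 10.8, 15.4 and 15.5 CPM without gravity and at 26.4, 2.24 and 1.81 CPM with gravity. Replicate 1 with gravity was thus the highest library for Mki67, and also for Top2a, the mitotic topoisomerase, which stood at 20.9, 22.2 and 25.0 CPM without gravity and at 41.6, 16.9 and 5.11 CPM with gravity. Ccnb1, the mitotic cyclin, lay at or below 2.50 CPM in all 6. The libraries with gravity thus differed among themselves on these genes.

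For DNA replication 16 of 20 tested genes lay above 0 (median 0.59; 0.38 without replicate 3 without gravity), with 3 (15%, beside 6.35% of all genes) higher without overlap. Pole, the leading-strand polymerase, stood at 0.802, 2.18 and 3.03 CPM without gravity and at 0.580, 0.172 and 0 CPM with gravity, a matter of a few counts. Mcm4, of the replicative helicase, stood at 12.6, 4.19 and 7.84 CPM without gravity and at 3.93, 3.95 and 4.12 CPM with gravity (log2 1.03, or 0.56 without replicate 1 without gravity). Rrm2, of ribonucleotide reductase, overlapped, at 81.8, 26.8 and 189.6 CPM against 98.3, 54.9 and 39.2 CPM. Replication-dependent histones did not follow: 2 of 7 tested lay above 0 (median -0.52; -0.32 without replicate 2 without gravity). Hist1h1c, the most abundant, stood at 79.4, 45.5 and 66.1 CPM without gravity and at 89.4, 102.8 and 81.4 CPM with gravity. Hist1h2ae stood at 0.401, 0.336 and 0 CPM without gravity and at 1.10, 3.78 and 10.2 CPM with gravity (log2 -4.24 ± 1.08, SE, unadjusted p = 0.000956, adjusted 1 in edgeR), with the group without gravity at or under 3 counts a library. Libraries of polyadenylated RNA capture few histone transcripts, most of which carry no poly(A) tail.

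Lists of the sensors and targets of tension leaned upward or split. Of 20 SRF and YAP targets 18 lay above 0 (median 0.52, between 0.32 and 0.77 with each library left out), and none was free of overlap. Ccn2, a YAP target that encodes connective tissue growth factor, stood at 3.41, 31.2 and 11.4 CPM without gravity and at 9.28, 2.32 and 2.31 CPM with gravity (log2 1.71 ± 0.95, SE). Ccn1 stood at 10.6, 21.98 and 21.0 CPM without gravity and at 20.8, 6.19 and 16.3 CPM with gravity. Ankrd1, another YAP target, stood at 72.2, 55.0 and 121.2 CPM against 83.9, 48.2 and 66.0 CPM. Acta2, the smooth muscle actin gene under SRF, stood at 74.6, 212.4 and 151.5 CPM without gravity and at 163.0, 87.6 and 65.9 CPM with gravity. In all 4 of these genes replicate 1 without gravity lay within the range with gravity. Cnn1, the calponin gene, had the smallest p of the list but only a few counts, at 0, 3.69 and 2.67 CPM without gravity and 0.322, 0.172 and 0.165 CPM with gravity. Tpm4, a tropomyosin and the most abundant member, stood at 181.3, 194.8 and 181.9 CPM against 257.4, 133.4 and 139.1 CPM.

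Matrix genes had the highest median of the 25 lists, 0.94, with 19 of 21 above 0, yet none had an unadjusted p under 0.05 and in none were the groups apart. The median lay between 0.58 (without replicate 3 with gravity) and 1.27 (without replicate 1 without gravity). Col1a1, a chain of type I collagen, stood at 17.9, 48.5 and 66.3 CPM without gravity and at 17.9, 16.7 and 2.47 CPM with gravity. Sparc, a secreted matrix glycoprotein, stood at 1224, 2131 and 3544 CPM without gravity and at 1479, 1957 and 824.8 CPM with gravity. Tnc, tenascin, stood at 0.802, 6.04 and 10.2 CPM without gravity and at 2.26, 0.688 and 0.659 CPM with gravity. Summed over the list, replicates 2 and 3 without gravity were the highest and replicate 3 with gravity the lowest (2218, 4778 and 6310 against 3150, 4307 and 1360 CPM). Fibroblast and adipocyte markers had a median of 0.55 with 5 of 6 tested above 0 (0.24 and 3 of 6 without replicate 2 without gravity). Their sums were likewise highest in replicates 2 and 3 without gravity and lowest in replicate 3 with gravity, and their part in the matrix values was not tested. The libraries of each group were further apart in matrix transcripts than the group means were.

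Of 20 focal adhesion genes 13 lay above 0 (median 0.13, and -0.03 without replicate 2 without gravity). Itga7, the laminin-binding integrin of muscle, had separate groups at 9.83, 15.1 and 6.59 CPM without gravity and 4.45, 5.84 and 4.61 CPM with gravity (log2 1.08 ± 0.54, SE). Itgb1, its beta chain, overlapped, at 624.9, 255.5 and 727.4 CPM against 489.2, 574.4 and 453.7 CPM. In the actin and tubulin list 11 of 16 lay above 0 (median 0.35; -0.14 with the dominant share as a covariate), and Actb, cytoplasmic actin, stood at 5995, 2177 and 8333 CPM without gravity and at 5219, 5237 and 6349 CPM with gravity. Tmsb10, a thymosin that binds actin monomers, stood at 20.7, 45.0 and 31.4 CPM without gravity and at 15.0, 16.8 and 22.7 CPM with gravity. The lamina and intermediate filament list split, with 6 of 14 above 0 (median -0.12; 0.04 with 8 of 14 above 0 without replicate 2 without gravity). Vim, the filament protein vimentin, was apart at 382.2, 660.4 and 511.3 CPM without gravity and 302.9, 270.6 and 308.3 CPM with gravity (log2 0.82 ± 0.54, SE, unadjusted p = 0.144). Lmna, the A-type lamin gene, stood at 1812, 188.9 and 1751 CPM against 1933, 1544 and 1630 CPM, so 1 library alone set its mean apart. Syne2, which links the nuclear envelope to actin, stood at 3.81, 6.71 and 2.50 CPM without gravity and at 14.9, 11.1 and 5.93 CPM with gravity.

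The muscle identity of the cells showed only in part. Ncam1, a surface adhesion protein of myoblasts, was abundant at 1734, 681.7 and 4338 CPM without gravity and 2085, 2960 and 1053 CPM with gravity. Myf5, a determination factor of the lineage, stood at 50.5, 20.0 and 87.7 CPM without gravity and at 124.9, 129.3 and 52.7 CPM with gravity (log2 -0.96 ± 0.61, SE). Myod1, the other determination factor and a defining gene of C2C12 cells, was at or below 0.503 CPM in all 6 libraries, and Pax3, Msc and Heyl had no count in any. Of 12 tested identity genes 4 lay above 0 (median -0.31; -0.15 without replicate 2 without gravity, and 0.07 once the dominant share was a covariate). Mef2d, a muscle transcription factor gene, was high in 1 library only, at 6.22, 8.39 and 4.46 CPM without gravity and 6.96, 5.42 and 76.1 CPM with gravity.

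Genes that myoblasts switch on as they fuse were near absent in both groups. Myog, the differentiation factor, stood at 0 to 0.178 CPM in all 6, and Acta1, skeletal actin, at 1.40, 1.51 and 1.07 CPM without gravity and at 2.90, 1.03 and 0.494 CPM with gravity. Ttn, titin, stood at 0.802, 3.86 and 0.178 CPM without gravity and at or below 0.165 CPM with gravity. Only 5 of 22 genes of that list had enough counts to be tested, and 4 had no count in any library.

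The defining genes of the atrophy programme of unloaded muscle were without counts or had a wide interval, so no verdict on that programme is drawn. Trim63, the ligase MuRF1, and Mstn, myostatin, had no count in any of the 6 libraries, which allows up to 0.193 to 0.602 CPM depending on the library. Fbxo32, atrogin-1, stood at 6.62, 12.3 and 37.1 CPM without gravity and at 16.5, 18.7 and 13.5 CPM with gravity. Its log2 fold change was 0.20 ± 0.72 (SE, 95% interval -1.30 to 1.70), and from -0.82 to 0.59 with each library left out. Over the list 7 of 20 lay above 0 (median -0.09; -0.25 without replicate 2 without gravity). In 3 (15%, beside 5.98% of all genes) the groups did not overlap, with the lower level without gravity: Fbxo30, described above, and the activin receptors Acvr2a (2.41, 3.86 and 3.03 against 4.58, 7.65 and 13.5 CPM) and Acvr2b (1.20, 0.671 and 1.07 against 1.68, 3.52 and 2.64 CPM). With the dominant share as a covariate the log2 fold change of Acvr2a turned to 0.18. In the insulin-like growth factor list 11 of 19 lay above 0 (median 0.12; 0.02 without replicate 2 without gravity). Fstl1, a secreted follistatin-like protein and the most abundant member of the atrophy list, stood at 189.9, 101.7 and 572.2 CPM against 296.2, 120.4 and 203.4 CPM. Igf1 was at or below 0.823 CPM throughout, and Igfbp2, a binding protein gene, stood at 0.802, 3.69 and 4.81 CPM without gravity and at 0.838, 0.774 and 0.165 CPM with gravity.

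Targets of p53 leaned lower without gravity. Of 18 tested 3 lay above 0, with a median of -0.65, and 5 were lower without overlap, beside 5.98% of all genes; 2 had an unadjusted p under 0.05. Without replicate 2 without gravity, 1 of 18 lay above 0 and the median was -0.36. The median was -0.42 without replicate 1 or replicate 3 with gravity and kept its sign under every alternative run. Pmaip1, which encodes the death factor Noxa, stood at 1.00, 4.03 and 3.74 CPM without gravity and at 17.99, 25.4 and 21.7 CPM with gravity (log2 -2.88 ± 1.04, SE, unadjusted p = 0.0127). Gadd45a, a growth arrest gene, stood at 437.4, 79.2 and 484.7 CPM without gravity and at 726.4, 635.7 and 855.3 CPM with gravity (log2 -1.15 ± 0.88, SE; -0.68 without replicate 2 without gravity). Mdm2, the ligase that degrades p53, stood at 797.8, 74.8 and 524.8 CPM without gravity and at 908.4, 818.7 and 1146 CPM with gravity. Replicate 2 without gravity was the lowest library for Gadd45a and Mdm2, and the other 2 also lay below the range with gravity. Cdkn1a, the arrest factor p21, overlapped, at 186.1, 135.7 and 132.2 CPM against 168.8, 201.5 and 205.7 CPM. Aen, with the smallest p of the list, rested on 1 library (5.62, 4.70 and 1.96 against 5.87, 5.42 and 87.9 CPM). The list summed to 2638, 844.4 and 1975 CPM without gravity and 3119, 2872 and 3637 CPM with gravity. In treated cells the same contrast had 11 of 18 above 0 and a median of 0.14, close to the 55.2% and 0.094 of all genes there.

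Antioxidant genes under NRF2 leaned the same way less evenly, with 6 of 24 above 0 and a median of -0.35, which lay between -0.54 (without replicate 2 with gravity) and -0.17 (without replicate 3 with gravity) and was -0.22 without replicate 2 without gravity. Osgin1, Gclm and Hmox1 were lower without overlap (12.5% of the list, beside 5.98% of all genes). Prdx5, a peroxiredoxin, was higher without overlap (4.17%, beside 6.35% of all genes). Gclm, of glutathione synthesis, stood at 76.4, 25.5 and 36.0 CPM without gravity and at 93.8, 108.2 and 141.6 CPM with gravity (log2 -1.32 ± 0.76, SE). Hmox1, heme oxygenase, stood at 194.3, 175.7 and 131.0 CPM without gravity and at 229.1, 235.3 and 259.2 CPM with gravity (log2 -0.53 ± 0.64, SE). Sod2, the mitochondrial superoxide dismutase, overlapped, at 34.1, 15.4 and 38.3 CPM against 37.3, 55.2 and 20.3 CPM. So did Sod1, the cytosolic form and most abundant member, at 843.3, 278.0 and 345.2 CPM against 393.1, 444.8 and 1068 CPM. In treated cells 15 of 24 lay above 0, with a median of 0.21. The metallothionein and zinc list was centred near 0 (6 of 12 above 0, median 0.02, and 0.12 without replicate 2 without gravity). In it 1 member was apart in each direction (8.33% each, beside 6.35% of all genes higher and 5.98% lower). Mt2, a metal-binding protein gene, stood at 35.5, 63.9 and 29.1 CPM without gravity and at 14.6, 15.4 and 28.0 CPM with gravity (log2 1.15 ± 0.60, SE; -0.03 with the dominant share as a covariate). Mt1 overlapped, at 107.3, 169.3 and 87.0 CPM against 53.6, 62.5 and 113.6 CPM.

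Of 16 tested heat shock chaperones 1 lay above 0, but the median was only -0.28, and 0.08 without replicate 3 with gravity, the library in which 14 of the 16 were highest. Hsp90ab1, the cytosolic HSP90 and most abundant member, stood at 1892, 776.0 and 1962 CPM against 1599, 1932 and 2143 CPM. Hspa4, a cochaperone of HSP70, stood at 36.3, 46.8 and 40.3 CPM without gravity and at 55.3, 63.9 and 75.4 CPM with gravity. The inducible Hspa1a was at or below 0.671 CPM in 5 libraries and at 3.13 CPM in replicate 3 with gravity. The ATF4 and unfolded protein list lay around 0 (12 of 21 above, median 0.08), with 4 members higher without overlap (19%, beside 6.35% of all genes) and 3 lower (14.3%, beside 5.98%). Among them was Psat1, a serine synthesis gene under ATF4, at 61.2, 54.4 and 54.5 CPM without gravity and 25.7, 43.6 and 35.6 CPM with gravity (log2 0.70 ± 0.50, SE). Of the immediate early genes 10 of 16 lay above 0 (median 0.25; 0.13 without replicate 2 without gravity). Egr1, an early growth response factor, stood at 4.21, 2.35 and 4.46 CPM without gravity and at 2.06, 0.688 and 1.32 CPM with gravity. Klf4, the most abundant of them, lay lower without overlap at 478.3, 61.2 and 377.2 CPM against 512.3, 505.0 and 586.1 CPM.

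Among metabolic genes, 20 of 23 of glycolysis and hypoxia lay above 0, with a median of 0.21 that was 0.06 without replicate 2 without gravity and -0.48 once the dominant share was a covariate. Pdk1, a hypoxia-induced kinase that holds pyruvate out of mitochondria, stood at 157.2, 104.4 and 241.3 CPM without gravity and at 83.5, 124.7 and 52.5 CPM with gravity. Aldoa, the muscle aldolase and most abundant member, was nearly level, at 1019, 986.4 and 994.4 CPM against 771.0, 1039 and 996.3 CPM. For cholesterol synthesis 7 of 18 lay above 0 (median -0.25; 0.03 with 10 of 18 above 0 without replicate 2 without gravity, and 0.30 once the dominant share was a covariate). Srebf1, a lipid synthesis regulator, was the list's one gene with a p under 0.05 on the higher side, at 13.6, 14.3 and 7.13 CPM without gravity and 4.71, 4.73 and 4.61 CPM with gravity (log2 1.31 ± 0.50, SE, unadjusted p = 0.0166, adjusted 1 in edgeR). Sc5d, a late sterol desaturase, ranged from 51.8 to 522.8 CPM without gravity and from 275.8 to 626.0 CPM with gravity.

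**Figure D5:**
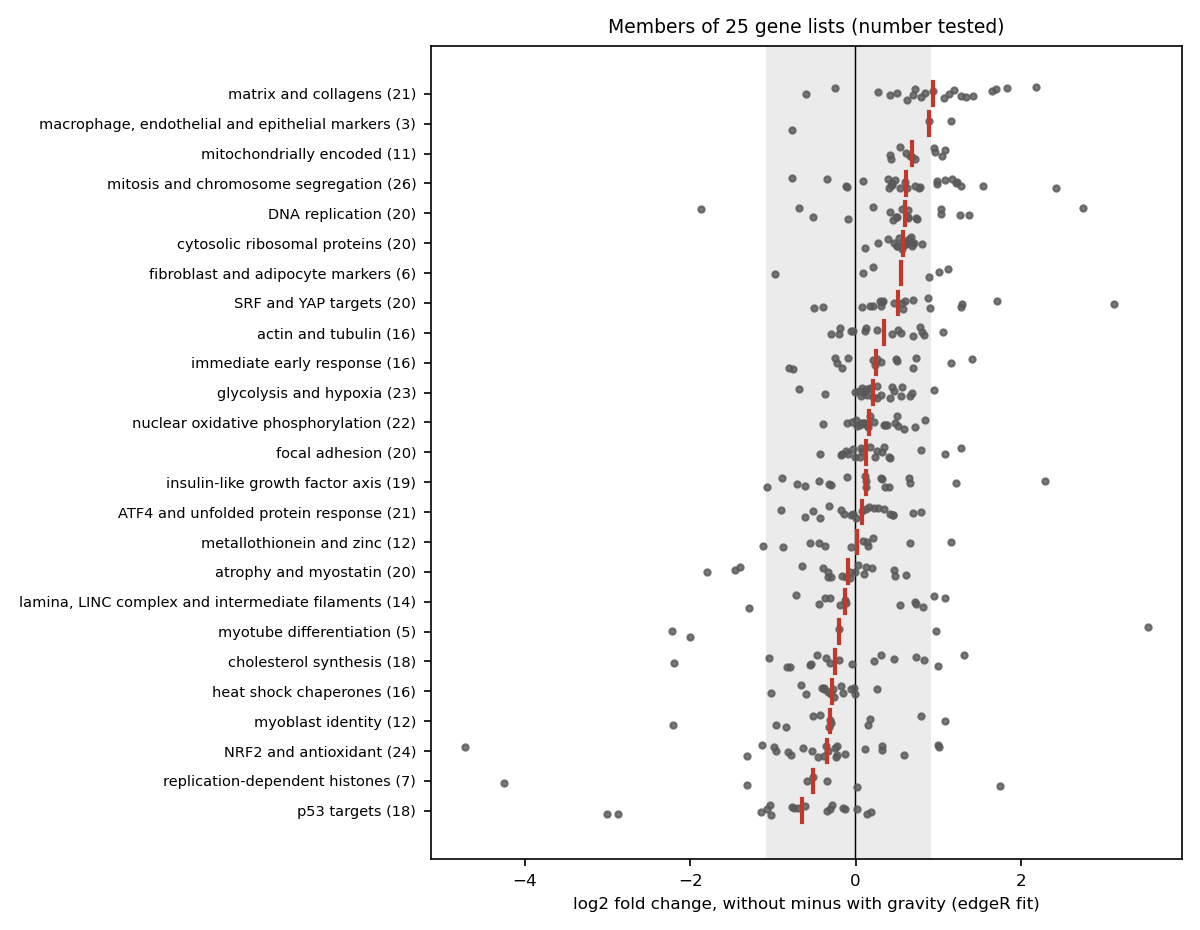
Fitted log2 fold change (without minus with gravity) of every tested member of 25 gene lists; each point is a gene, red bars are list medians, the black line is the median of all 11558 genes and the grey band their 10th to 90th percentile (-1.07 to 0.90). Medians run from 0.94 for matrix genes to -0.65 for p53 targets.

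Short genes and copies lay on the higher side and long genes on the lower side. Median log2 fold changes were ordered across quartiles of deposited gene length, from 0.21 for the shortest (up to 2429 bases, 63% above 0) to -0.22 for the longest (from 6386 bases, 38.2% above 0). Without replicate 2 without gravity the same medians were 0.11 and -0.12. Pseudogenes had a median of 0.41 with 397 of 540 above 0, and 0.29 without that library. With the dominant share as a covariate the median was 0.06 for pseudogenes of ribosomal proteins (56 of 98 above 0) and -0.0014 for the others (223 of 446). Protein-coding genes stood at -0.024, long noncoding genes at -0.24, and gene models that GENCODE marks as still needing experimental proof (TEC) at -0.80 with 42 of 146 above 0, or -0.39 without that library. Among protein-coding genes of at most 1500 bases that are no ribosomal protein gene, 483 of 709 lay above 0 with a median of 0.26, but 273 of 709 with a median of -0.17 with the dominant share as a covariate.

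Markers of other cell types differed in level. Of 14 macrophage, endothelial and epithelial markers 5 had no count in any library, among them Kdr, Krt8 and Krt18. Cd68, a lysosomal protein abundant in macrophages and present in other cells, was the most abundant at 21.7, 5.20 and 5.35 CPM without gravity and 13.2, 9.20 and 32.4 CPM with gravity. The list summed to 7.89 to 25.3 CPM without gravity and 10.7 to 34.1 CPM with gravity, so it did not differ between the groups beyond their spread. Of 12 fibroblast and adipocyte markers Ly6a led, at 36.1, 90.3 and 57.0 CPM without gravity and 30.6, 42.5 and 18.3 CPM with gravity. That list summed to 53.4, 128.4 and 83.9 CPM without gravity and 48.1, 63.5 and 32.4 CPM with gravity. In bulk RNA, more cells of a kind and more RNA per cell cannot be told apart.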

How the data were processed

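Raw counts per Ensembl gene were deposited by the authors, 1 library per file, with exon coordinates, strand and length per the file headers. The submitters' processing notes name CASAVA, Trimmomatic 0.36.29, STAR, Subread, featureCounts and GRCm38.p6; use of strand and of reads that fit several loci is not given in the sources used here. All files listed 49315 genes, of which 49056 were matched to GENCODE M21 for symbols.

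Counts were tested with edgeR 4.0.16 (R 4.3.3): filterByExpr over 6 groups, TMM scaling and a robust quasi-likelihood fit of group means over all 18 libraries, so that groups share 1 estimate of the spread (12 residual degrees of freedom), with Benjamini-Hochberg adjustment over 11558 genes. The script was tested on simulated data. Shares were compared by 2-sided exact permutation over 20 assignments. Alternatives used DESeq2 1.42.0, limma 3.58.1 and other filters, scalings and library sets. Named genes were the 12 with the smallest p on each side (mean log2 CPM of at least 3, 10 counts in each library of the higher group), the smallest-p and most abundant member of each list, a fixed panel, and the 2 with the smallest p for the difference; Mpg, Fgf9, Fanci, Ccdc14, Cort, Rps9, Rps27l, Mcm4, Prdx5, Gclm, Pmaip1, Gadd45a, Acvr2a and Acvr2b were named after their values were seen. Members and lists were chosen with earlier results of these data known. Total counts were 4974222 to 11378178, and counts outside the dominant genes 1567037 to 8573359. Precision depends on that depth and on the spread between libraries (biological coefficient of variation 0.66). Small RNA samples were not analysed here. Some genes that the rule names are not reported here.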

Additional observations from a re-analysis of the deposited data

Results flagged for a closer look

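In 7 named genes every untreated library without gravity lay on one side of every library with gravity, and the nanoceria-treated libraries were apart in the opposite direction. Only named genes were searched, and Gin1 and Chml were named for the smallest p of this same difference. The share of all 11558 genes with this pattern was not counted, so the number 7 is not read as a result. Over all genes, 6.35% were apart higher and 5.98% lower in untreated cells, and 7.41% and 1.7% in treated cells. The log2 difference between the untreated and treated contrasts was -8.82 for Osgin1, -7.13 for Chml, -5.70 for Gin1, -5.57 for Hist1h2ae, -1.73 for Klf4, 2.27 for Mcm4 and 2.11 for Zrsr2. None of these differences passed edgeR's adjusted test (adjusted p of 0.358 for Osgin1, Chml and Gin1, 0.908 for Hist1h2ae and 1 for Klf4, Mcm4 and Zrsr2). The third treated library with gravity, of 23858 counts, held 0 counts of Osgin1, Chml, Gin1 and Hist1h2ae, 7 of Klf4 and 1 each of Mcm4 and Zrsr2, so its place in the order is weakly measured.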

How the results depend on the processing

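No paired analysis was possible because libraries were numbered in record order, so a shared number ties no samples together. The count of 0 genes in the untreated contrast stayed 0 with DESeq2 size factors, limma voom, a mean of at least 50 counts, only the 6 libraries, the smallest library out, the dominant genes removed, the length trend taken out, and each library left out (0 to 0). It was 3 with DESeq2, 157 with no filter and 2 when the dominant share was a covariate (Ccdc14 and Cort, both higher). The treated count of 0 became 26 with DESeq2, 333 with no filter and 6 with only its own libraries. The count for the difference became 14 with DESeq2 and 166 with no filter. As parts of all counts, the differences in shares were 0.0371 points for the mitochondrial genome, -24.4 for protein coding, 0.00173 for pseudogenes and 0.0860 for small noncoding genes.

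Signs of small and of some larger changes turned (Mt2 was 1.15 and Rps9 0.89 in the fit reported above). With the dominant share as a covariate they were Igf1 5.26, Acta2 -0.36, Actb 0.25, Lmna 0.17, Mt1 -0.69, Mt2 -0.028, Rps9 -0.085, Rps27l -0.37, Acvr2a 0.18, Rpl4 -0.35, Tpm4 -1.19, Tmsb10 -0.036, Eif4ebp1 -0.92, Aldoa -0.59 and Sc5d 0.35. With voom they were Myod1 -0.066, Fbxo32 -0.12, Igf1 0.54, Atp5b 0.025 and Ncam1 -0.058. With DESeq2 size factors they were Actb 0.070, Atp5b 0.17 and Acta1 0.022, and with DESeq2 0.070, 0.17 and 0.040. With a mean of at least 50 counts they were Actb 0.050 and Atp5b 0.13. Atp5b was 0.017 with only the 6 libraries and 0.024 with the length trend out, where Rps27l was -0.20. The cause was not tested.

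With each library left out, signs turned within these ranges: Mki67 -0.067 to 2.76, Myod1 -3.07 to 3.12, Fbxo32 -0.82 to 0.59, Igf1 -1.15 to 0.18, Ccn1 -0.083 to 0.67, Ankrd1 -0.086 to 0.55, Actb -0.47 to 0.36, Lmna -0.82 to 0.068, Sod2 -0.66 to 0.0095, Top2a -0.39 to 1.03, Rrm2 -0.26 to 1.08 and Atp5b -0.17 to 0.13. Further ranges were Rps27l -0.092 to 0.16, Itgb1 -0.22 to 0.42, Tpm4 -0.12 to 0.44, Mef2d -2.74 to 0.011, Ncam1 -0.77 to 0.59, Acta1 -0.59 to 0.73, Fstl1 -0.53 to 0.88, Sod1 -1.06 to 0.21, Slc39a1 -0.17 to 0.33, Aldoa -0.034 to 0.15, Hsp90b1 -0.15 to 0.21 and Hsp90ab1 -0.52 to 0.030. Depth limits genes near 3 counts a library.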
